A study of Mus musculus with 6 samples.

Results

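Goblet cell and mucus genes were followed in colon tumors of the AOM/DSS model of colitis-associated carcinoma. The members were the rows of the deposited gene table whose gene name is Muc2, Tff3, Clca1, Fcgbp, Zg16, Agr2, Spdef, Spink4, Retnlb or Muc4, which gave 10 of 54532 listed genes. All 10 had a mean FPKM of at least 0.5, the limit that 16426 genes passed and above which genes were tested. FPKM is the number of fragments per kilobase of gene length, scaled to a common library size, so that levels of different genes can be compared.

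Tumors of 3 Tmem173fl/fl and 3 Tmem173iΔmye mice, all on the C57BL/6N background, were analysed by RNA-seq, and the labels give the first genotype as WT. Tmem173, which encodes the DNA-sensing adaptor STING, is flanked by loxP sites in both groups. Tmem173iΔmye mice carry in addition Lyz2-Creert2, spelled Lzym-Creert2 in the labels, a recombinase driven by a promoter of macrophages, monocytes and neutrophils and activated by tamoxifen (TAM). Mice of both genotypes received the carcinogen azoxymethane (AOM), 3 cycles of the colitis-inducing dextran sodium sulfate (DSS) in drinking water and then TAM, so that the controls were exposed to TAM too and the deletion followed tumor formation. The labels give no age, and do not say how many tumors of a mouse went into a sample. The comparison addressed how loss of myeloid STING in tumor-bearing mice changed gene expression in the tumor, and the genes described here are made by epithelial cells, in which the recombinase is not directed to act.

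The libraries were of similar depth, with totals from 15329810 to 16533732 counts. Tmem173 itself had 137 ± 50.02 CPM (counts scaled to library size, SD, n = 3) in Tmem173fl/fl and 137 ± 10.9 CPM (SD, n = 3) in Tmem173iΔmye tumors, so whole tumor RNA did not tell the genotypes apart. The epithelial marker Epcam had an FPKM between 788 and 1142 in the 6 tumors. Counts of Y-linked genes, between 2655 and 3547, were found in 1 Tmem173fl/fl tumor (replicate 1) and 2 Tmem173iΔmye tumors (replicates 1 and 2), and the remaining 3 tumors had 2 or fewer, so sex was unevenly spread over the genotypes. Over all genes, edgeR (quasi-likelihood F-test, Benjamini-Hochberg) called 0 genes at an adjusted p of 0.05 and 1008 at an unadjusted p of 0.05, and the smallest adjusted p was 0.742. DESeq2 called 28 genes at an adjusted p of 0.05, none of them a goblet cell or mucus gene.

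Goblet cells are secretory cells of the intestinal epithelium that store mucin in granules and release it to form the mucus layers between the tissue and the bacteria of the lumen. MUC2 is the gel-forming mucin of this mucus, and trefoil peptides, FCGBP, CLCA1 and ZG16 are secreted with it. The fate is set by the transcription factor ATOH1 where Notch signaling is low, and SPDEF acts after it in the maturation of the cells. In colitis, goblet cells are often depleted, and colon tumors differ in how much of this differentiation they keep.

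Of the 10 genes, 5 had an entry in the promoter sequences of RefSeq (build GRCm38.p6), and the 250 bases before the annotated start are shown for 4 of them. Muc2 is shown as the gel-forming mucin, Agr2 and Spdef because their levels were alike across the tumors, and Fcgbp because its levels differed most from those of the others. Capitals mark CAGCTG, an E-box of the kind that basic helix-loop-helix factors such as ATOH1 bind, anywhere in the 250 bases, and TATAA, the core of the TATA box, within the last 50 bases. Each sequence is written 5′ to 3′ on the strand of the gene and ends at the base before the start of RefSeq. The deposited gene models of Agr2 and Spdef begin a few bases inside these windows.
Muc2 (chr7:141690090-141690339, plus strand): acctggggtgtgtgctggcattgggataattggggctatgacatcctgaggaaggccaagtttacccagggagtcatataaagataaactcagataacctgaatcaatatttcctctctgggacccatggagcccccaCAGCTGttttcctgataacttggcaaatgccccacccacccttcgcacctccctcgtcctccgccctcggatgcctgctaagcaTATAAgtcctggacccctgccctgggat
Fcgbp (chr7:28070986-28071235, plus strand): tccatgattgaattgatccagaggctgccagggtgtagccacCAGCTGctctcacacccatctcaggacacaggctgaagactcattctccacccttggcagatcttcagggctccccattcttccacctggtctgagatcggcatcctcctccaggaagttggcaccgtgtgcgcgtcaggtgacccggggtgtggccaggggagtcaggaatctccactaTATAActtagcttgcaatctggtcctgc
Agr2 (chr12:35992675-35992924, plus strand): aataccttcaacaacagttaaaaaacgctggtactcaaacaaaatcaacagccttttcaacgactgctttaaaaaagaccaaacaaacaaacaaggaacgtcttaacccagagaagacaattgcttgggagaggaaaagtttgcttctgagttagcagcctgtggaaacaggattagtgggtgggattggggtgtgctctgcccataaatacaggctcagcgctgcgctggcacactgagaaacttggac
Spdef (chr17:27728952-27729201, minus strand): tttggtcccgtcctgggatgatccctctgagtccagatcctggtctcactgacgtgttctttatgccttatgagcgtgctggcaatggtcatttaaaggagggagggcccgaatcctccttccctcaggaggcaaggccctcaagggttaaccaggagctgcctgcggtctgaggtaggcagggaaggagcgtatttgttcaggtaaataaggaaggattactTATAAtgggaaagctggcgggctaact
The E-box begins 112 bases before the start of Muc2 and 208 bases before the start of Fcgbp. It was in 2 of the 5 promoters and in 13.0% of 32851 promoters of the same length in the RefSeq table, searched in the same way. The letters read the same on both strands. TATAA begins 28 bases before the start of Muc2, 28 before that of Fcgbp, 27 before that of Spdef and 36 before that of Muc4, and was in 4 of the 5 promoters. It was found on either strand in 6.36% of the 32851 promoters. The Agr2 window held neither. These are matches of letters, and the data do not bear on whether a factor is bound there.

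Muc2 and Fcgbp encode the framework of the mucus gel. Muc2, the gel-forming mucin, lies on chromosome 7 (GRCm38 141690340 to 141754693, plus strand). Its FPKM was 335, 124 and 152 in the Tmem173fl/fl tumors and 268, 191 and 163 in the Tmem173iΔmye tumors, given here and below in the order of replicates 1, 2 and 3. Replicate 1 of each genotype was the highest of its group, and all 3 Tmem173iΔmye values lay inside the range of the Tmem173fl/fl tumors. The means were 204 ± 115 (SD, n = 3) and 208 ± 54.4 (SD, n = 3), and the log2 fold change of Tmem173iΔmye relative to Tmem173fl/fl tumors (log2FC) was 0.02 (SE 0.39, adjusted p = 0.993, edgeR). In whole tumor RNA, fewer goblet cells and less RNA per goblet cell cannot be told apart. Fcgbp, on chromosome 7 from 28071236 to 28120862, encodes a large protein with von Willebrand factor domains that is bound to the mucin network. Its FPKM was 95.6, 59.2 and 65.7 in the Tmem173fl/fl and 40.1, 86.6 and 64.1 in the Tmem173iΔmye tumors. Tmem173iΔmye replicate 1, which was high for Muc2, was the lowest tumor for Fcgbp. Fcgbp had a log2FC of -0.21 (SE 0.31, adjusted p = 0.871, edgeR), and the groups overlapped. Fcgbp was the most even of the 10 genes, with a 2.38-fold range from the lowest to the highest tumor against 2.70-fold for Muc2.

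Clca1 and Zg16 encode proteins of the mucus that act on the gel and on bacteria. Clca1, on chromosome 3 from 145003817 to 145032776, encodes a secreted metalloprotease that processes MUC2. Its FPKM was 149, 60.8 and 48.5 in the Tmem173fl/fl tumors and 75.2, 106 and 129 in the Tmem173iΔmye tumors. Apart from Tmem173fl/fl replicate 1, which was the highest of all 6, every Tmem173iΔmye tumor was above every Tmem173fl/fl tumor. The log2FC was 0.26 (SE 0.42, adjusted p = 0.885, edgeR), and it was 0.93 when Tmem173fl/fl replicate 1 was left out. Zg16, on chromosome 7 from 127050156 to 127087328, encodes a lectin that binds Gram-positive bacteria. Its FPKM was 283, 29.5 and 158 in the Tmem173fl/fl and 95.3, 167 and 66.8 in the Tmem173iΔmye tumors. The highest and the lowest tumor were both Tmem173fl/fl, 9.61-fold apart, and the Tmem173iΔmye tumors lay between them. Zg16 had a log2FC of -0.53 (SE 0.69, adjusted p = 0.859, edgeR), which was -1.02 without Tmem173fl/fl replicate 2 and 0.22 without Tmem173fl/fl replicate 1. The Zg16 locus overlaps 2 noncoding RNA genes on the opposite strand, the lincRNA Gm44939 with 5 counts and the snRNA Gm22747 with 0 counts in all tumors together.

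Tff3 and Spink4 encode small peptides released with mucus and were the most abundant of the 10. Tff3, on chromosome 17 from 31125306 to 31129646, encodes a trefoil peptide known for a role in epithelial repair. Its FPKM was 769, 154 and 425 in the Tmem173fl/fl tumors and 760, 309 and 290 in the Tmem173iΔmye tumors. Replicate 1 was at a like level in both genotypes and Tmem173fl/fl replicate 2 was the lowest. For Tff3 the log2FC was 0.0036 (SE 0.58, adjusted p = 0.9998, edgeR). Spink4, on chromosome 4 from 40920052 to 40931395, encodes a peptide of the Kazal protease inhibitor family found in goblet cells. Its FPKM was 1097, 152 and 388 in the Tmem173fl/fl and 1596, 359 and 338 in the Tmem173iΔmye tumors. Both replicates 1 stood above the other 4 tumors. The log2FC of Spink4 was 0.48 (SE 0.81, adjusted p = 0.889, edgeR), and without Tmem173iΔmye replicate 1 it was -0.66.

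Agr2 and Spdef belong to the making of the secretory cell. Agr2, on chromosome 12 from 35992907 to 36004087, encodes a protein disulfide isomerase of the endoplasmic reticulum that is needed for MUC2 production. Its FPKM was 201, 63.9 and 122 in the Tmem173fl/fl tumors and 414, 104 and 117 in the Tmem173iΔmye tumors. Tmem173iΔmye replicate 1 was the highest, and the other Tmem173iΔmye tumors lay within the Tmem173fl/fl range. The means were 129 ± 68.7 (SD, n = 3) and 212 ± 175 (SD, n = 3), with a log2FC of 0.71 (SE 0.60, adjusted p = 0.781, edgeR), and of -0.23 without Tmem173iΔmye replicate 1. Spdef, on chromosome 17 from 27714352 to 27728955, is the transcription factor of goblet cell maturation. Its FPKM was 17.5, 7.95 and 10.6 in the Tmem173fl/fl and 22.6, 7.62 and 9.75 in the Tmem173iΔmye tumors. The order of the tumors was close to that of Agr2, at a level lower by an order of magnitude. Spdef had a log2FC of 0.14 (SE 0.45, adjusted p = 0.945, edgeR), and -0.47 without Tmem173iΔmye replicate 1.

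Retnlb and Muc4 had the largest fold changes, and neither passed the test. Retnlb, on chromosome 16 from 48816856 to 48818892, encodes the antibacterial peptide RELMβ, which goblet cells release and which is known to be inducible by type 2 cytokines and bacteria. The reads counted on Retnlb numbered 64, 10 and 12 in Tmem173fl/fl and 421, 46 and 32 in Tmem173iΔmye tumors. As FPKM these were 5.89, 0.960 and 1.03 against 38.1, 4.13 and 2.91. Tmem173iΔmye replicate 1 stood far above the rest, the other Tmem173iΔmye tumors lay between Tmem173fl/fl replicate 1 and its 2 companions, and the groups overlapped through Tmem173fl/fl replicate 1 alone. The range from the lowest to the highest tumor was 39.7-fold. The log2FC of Retnlb was 2.50 (SE 1.13, adjusted p = 0.742, edgeR), where the unadjusted p of the same quasi-likelihood test was 0.058. It was 0.42 without Tmem173iΔmye replicate 1 and 3.90 without Tmem173fl/fl replicate 1. DESeq2 gave no p-value for Retnlb, since it marked a count as an outlier. Muc4, on chromosome 16 from 32735886 to 32782391, encodes a transmembrane mucin of the epithelial surface, made by goblet and absorptive cells. Its FPKM was 9.19, 10.4 and 3.99 in the Tmem173fl/fl and 22.5, 10.4 and 7.33 in the Tmem173iΔmye tumors. Tmem173iΔmye replicate 1 was again the highest, and Tmem173fl/fl replicate 3 the lowest. Muc4 had a log2FC of 0.77 (SE 0.47, adjusted p = 0.751, edgeR), and 0.17 without Tmem173iΔmye replicate 1. Muc4 overlaps Muc20 on the opposite strand, which had 787 counts in all tumors together, and whether the counting used strand is not given in the sources used here.

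**Figure D1:**
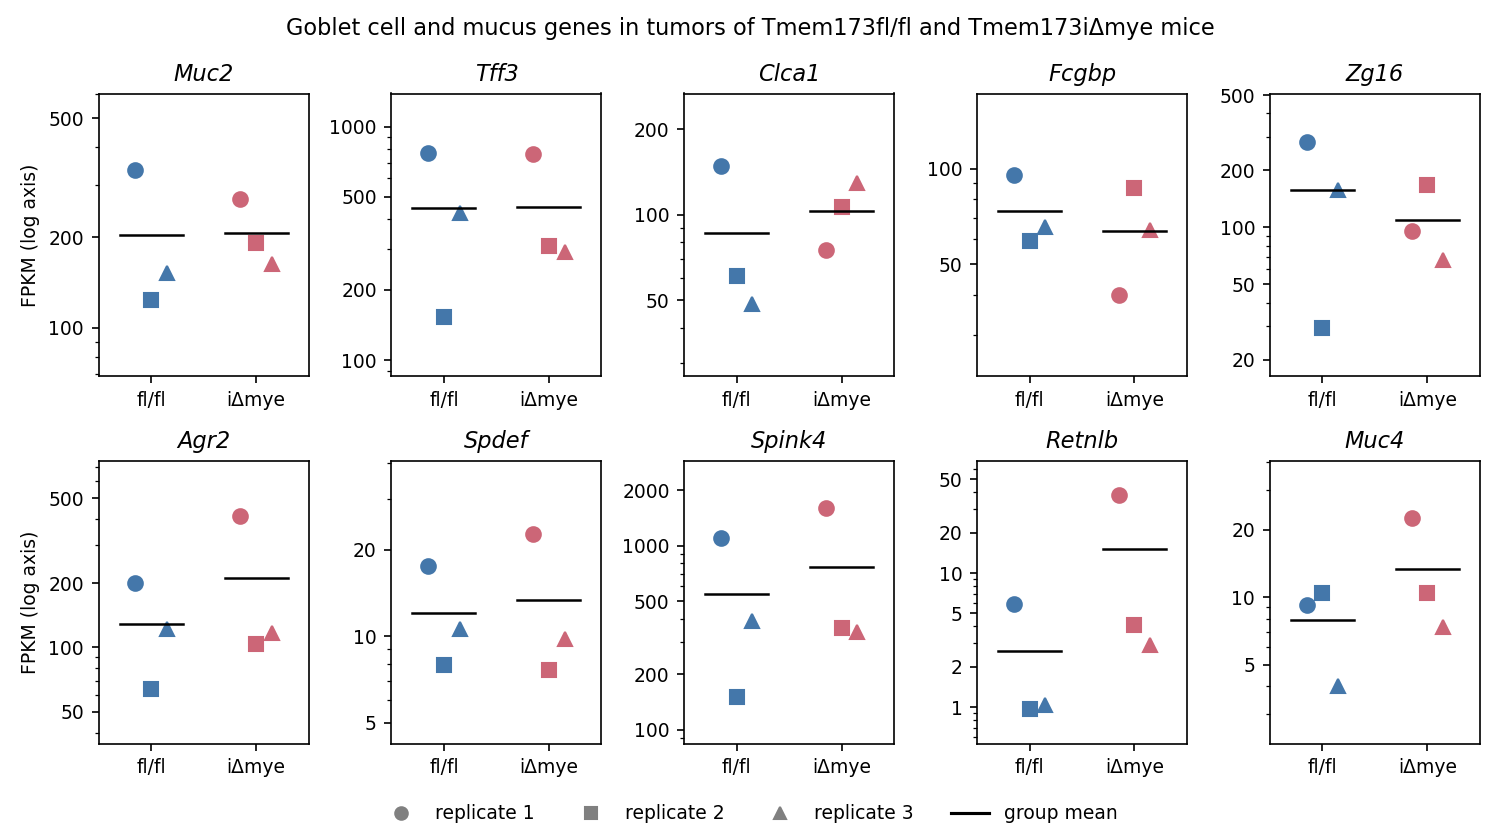
FPKM of each of the 10 genes (log axis, one panel per gene) in the 3 Tmem173fl/fl (blue) and 3 Tmem173iΔmye tumors (red), with the replicate number as the symbol and the group mean as a line. The groups overlap in every panel, and replicate 1 of either genotype is the highest tumor of each gene.

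Between the genotypes, none of the 10 genes passed an adjusted p of 0.05 in edgeR, where the share of all genes tested that passed was 0%. None had an unadjusted p under 0.05 either, against 6.14% of all genes tested. None passed the study's threshold of an unadjusted p under 0.05 together with a log2FC of 1 or more in size, which 2.12% of genes passed, 1.26% higher and 0.864% lower in Tmem173iΔmye tumors. This call was not stable, since at least 1 of the 10 genes passed the same threshold in 7 of 18 alternative settings, and Retnlb in 6 of them. Retnlb passed it with no filter on low values (log2FC 2.52), and without Tmem173fl/fl replicate 1 (3.90), Tmem173iΔmye replicate 2 (2.95) or Tmem173iΔmye replicate 3 (2.99). Zg16 passed it without Tmem173fl/fl replicate 2, at a log2FC of -1.02, and in edgeR Clca1 had an unadjusted p of 0.00881 without Tmem173fl/fl replicate 1. In that last setting, 1665 of 16426 genes had an unadjusted p under 0.05. The threshold was passed by 872 of 30939 genes with no filter. Of 16426 genes, 636 passed it without Tmem173fl/fl replicate 1 and 314 without Tmem173fl/fl replicate 2. Without Tmem173iΔmye replicate 2 or 3, 417 and 427 passed, against 349 in the main fit. The ranges of the groups overlapped for all 10, whereas they did not overlap for 12.5% of genes. The log2FC was above 0 for 8 of the 10 genes (49.4% of all genes tested) and below 0 for Fcgbp and Zg16, with a median of 0.20 against -0.0042 for all genes. The SE was larger than the absolute log2FC for 7 of the 10, the exceptions being Retnlb, Muc4 and Agr2. The share of all genes for which this held was not computed.

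The split of the directions depended on single tumors. Without Tmem173iΔmye replicate 1, 6 of the 10 genes were below 0 and the median was -0.22. Without Tmem173fl/fl replicate 1, 0 of the 10 were below 0 and the median was 0.77. It also depended on the scaling of the libraries, since with library totals alone Muc2 and Tff3 were below 0 too, at -0.012 and -0.044. When sex, read from Y-linked counts, was added to the model, 5 of the 10 were below 0, the median was -0.0037 and the smallest adjusted p of the 10 was 1 in edgeR. DESeq2 called 0 of the 9 genes for which it gave a p-value, at an unadjusted or an adjusted p of 0.05.

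**Figure D2:**
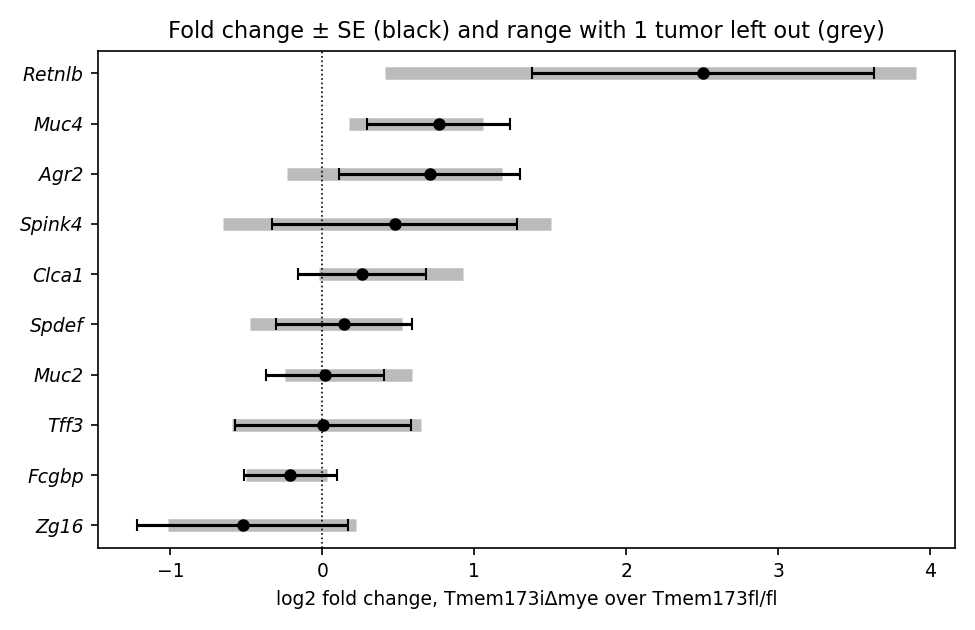
Log2FC of each of the 10 genes for Tmem173iΔmye over Tmem173fl/fl tumors (black points) with its SE (black bars, edgeR, n = 3 per group) and the range when each tumor is left out in turn (grey bars). The grey bars of 8 genes cross 0, and those of Retnlb and Muc4, the top rows, stay above it.

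Levels differed widely between tumors of one genotype. For all 10 genes, the fold between the highest and the lowest tumor within a genotype was larger than the fold between the group means, in Tmem173fl/fl and in Tmem173iΔmye tumors alike. This sets a range of single tumors against a ratio of averages, which favors the range, and the share over all genes was not computed. Among Tmem173fl/fl tumors this fold ran from 1.61 for Fcgbp to 9.61 for Zg16. Among Tmem173iΔmye tumors it ran from 1.65 for Muc2 to 13.1 for Retnlb. The SD of log2 CPM over the 6 tumors was above that of 85.1% to 99.6% of all genes tested, and 9 of the 10 genes were above 90% of them. The median SD of the 10 genes was 0.848, against 0.241 for all genes tested.

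The tumors at the extremes were the same for most of the genes. Tmem173fl/fl replicate 1 was the highest tumor for Muc2, Tff3, Clca1, Fcgbp and Zg16, and Tmem173iΔmye replicate 1 for Agr2, Spdef, Spink4, Retnlb and Muc4. Of all genes tested, 11.3% were highest in the first and 25.2% in the second of these tumors. Tmem173fl/fl replicate 2 was the lowest tumor for 6 of the 10 genes (Muc2, Tff3, Zg16, Agr2, Spink4 and Retnlb), and for 26.3% of all genes. The 10 genes together took 0.573%, 0.206% and 0.292% of the counts of the Tmem173fl/fl tumors. In the Tmem173iΔmye tumors they took 0.456%, 0.353% and 0.301%. The 95% Wilson intervals, which cover counting error alone, were narrow, for example 0.569% to 0.577% for the highest and 0.204% to 0.209% for the lowest tumor. The means of 0.357% ± 0.192 (SD, n = 3) and 0.370% ± 0.0792 (SD, n = 3) differed by less than the spread within each group. Epithelial and immune cell markers were also at their highest in replicate 1 of each genotype. The summed FPKM of 10 epithelial markers was 6459, 5880 and 6045 in the Tmem173fl/fl and 7202, 6332 and 6258 in the Tmem173iΔmye tumors, and that of 8 immune cell markers was 417, 214 and 182 against 419, 293 and 232. No marker of either list was at 0 in a tumor, and the part of the immune cells in the levels of the goblet cell genes was not tested.

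Per unit of gene length, Spink4 was the most abundant member, at rank 36 of the 16426 genes by mean FPKM. Tff3 was at rank 57, Muc2 at rank 180, Agr2 at rank 228, Zg16 at rank 304, Clca1 at rank 464 and Fcgbp at rank 717. Spdef, Muc4 and Retnlb were far below these secreted products, at ranks 4705, 5435 and 6230. Neighbours in this order overlapped in their range over tumors, except Fcgbp and Spdef. Spink4 made up a mean of 31.9% of the summed FPKM of the 10 genes, Tff3 25.0% and Muc2 12.9%. In Tmem173iΔmye replicate 1 the shares of Spink4, Agr2 and Retnlb, at 47.9%, 12.4% and 1.14%, were each the highest of the 6 tumors. Muc2, Tff3, Clca1, Fcgbp and Zg16 were at their lowest shares there, 8.05%, 22.8%, 2.26%, 1.204% and 2.86%. As parts of one sum, the shares are not independent of each other. In Tmem173fl/fl replicate 2, the tumor with the lowest sum, Muc2 had its highest share, 18.8%. Thus the tumors with high sums, 2963 in Tmem173fl/fl replicate 1 and 3332 in Tmem173iΔmye replicate 1, differed in make-up.

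**Figure D3:**
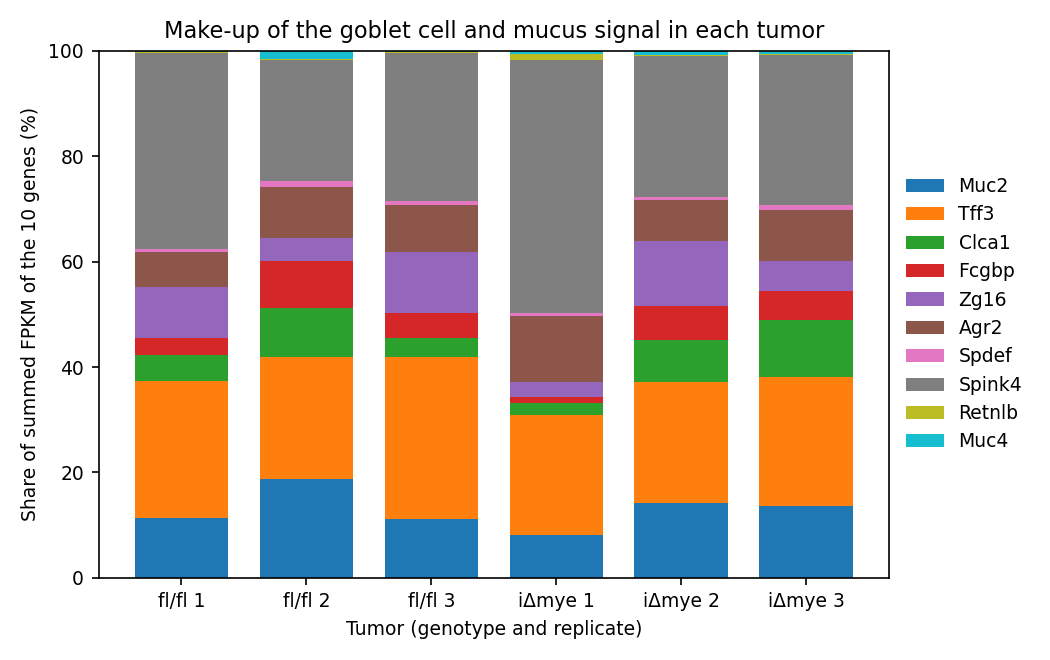
Share of each of the 10 genes in their summed FPKM (percent, stacked bars) in each tumor. Spink4 takes 47.9% of the bar of Tmem173iΔmye replicate 1 and between 22.9% and 37.0% of the others.

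The likeness of the genes was computed over the 6 tumors from log2(CPM + 1), as 45 pairs. Pearson's r was above 0 for 38 pairs and at least 0.9 for 8. These 8 pairs joined Muc2, Tff3, Spink4, Agr2, Spdef and Retnlb. For Agr2 and Spink4, r was 0.97 (exact permutation p = 0.00417) and Spearman's rho 0.94 (exact permutation p = 0.0167), with r 0.97 after leaving out the 2 tumors farthest from the median of Agr2. For Tff3 and Spink4, r was 0.97 (exact permutation p = 0.00417), rho 0.94 (exact permutation p = 0.0167) and r 0.95 without the 2 farthest tumors. The transcription factor Spdef and Agr2 had an r of 0.95 (exact permutation p = 0.00417), a rho of 0.94 (exact permutation p = 0.0167) and an r of 0.99 without the 2 farthest tumors. Adjusted over the 45 pairs by the Benjamini-Hochberg method, 0 pairs had a p under 0.05, and the smallest was 0.0625 for r and 0.188 for rho (exact permutation tests, n = 6). For Agr2 and Retnlb, with r 0.92, the relation rested on single tumors, since r was 0.51 without the 2 farthest. The same held for Spdef and Spink4, with r 0.94 and then 0.53, and for Muc2 and Spdef, with r 0.82 and then -0.033. Muc2 and Tff3 went from an r of 0.90 to 0.66. The remaining pairs with r of at least 0.9 changed less. They were Muc2 and Spink4, from 0.92 to 0.82, and Tff3 and Agr2, from 0.91 to 0.94. In deviations from the group means, r was 0.97 for Agr2 and Spink4, 0.98 for Tff3 and Spink4 and 0.98 for Agr2 and Spdef, so the likeness lay within the genotypes.

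Fcgbp was the gene least like the others, followed by Muc4 and Clca1. Fcgbp had an r below 0 with 6 of the other 9 genes, among them -0.38 with Agr2 and -0.48 with Muc4, which became 0.39 and 0.24 without the 2 farthest tumors. Against the mean of the other 9 genes, r was 0.98 for Muc2, 0.95 for Spink4, 0.90 for Tff3, 0.84 for Agr2, 0.80 for Spdef, 0.75 for Retnlb, 0.60 for Zg16, 0.44 for Clca1, 0.39 for Muc4 and -0.078 for Fcgbp. Zg16 had an r of 0.71 with Muc2 and 0.75 with Tff3, and of -0.18 with Muc4. These values describe 6 tumors that share their libraries between genes. Fcgbp, Clca1 and Zg16 had an r of 0.58 (Fcgbp and Zg16), 0.53 (Clca1 and Fcgbp) and 0.39 (Clca1 and Zg16) among themselves.

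**Figure D4:**
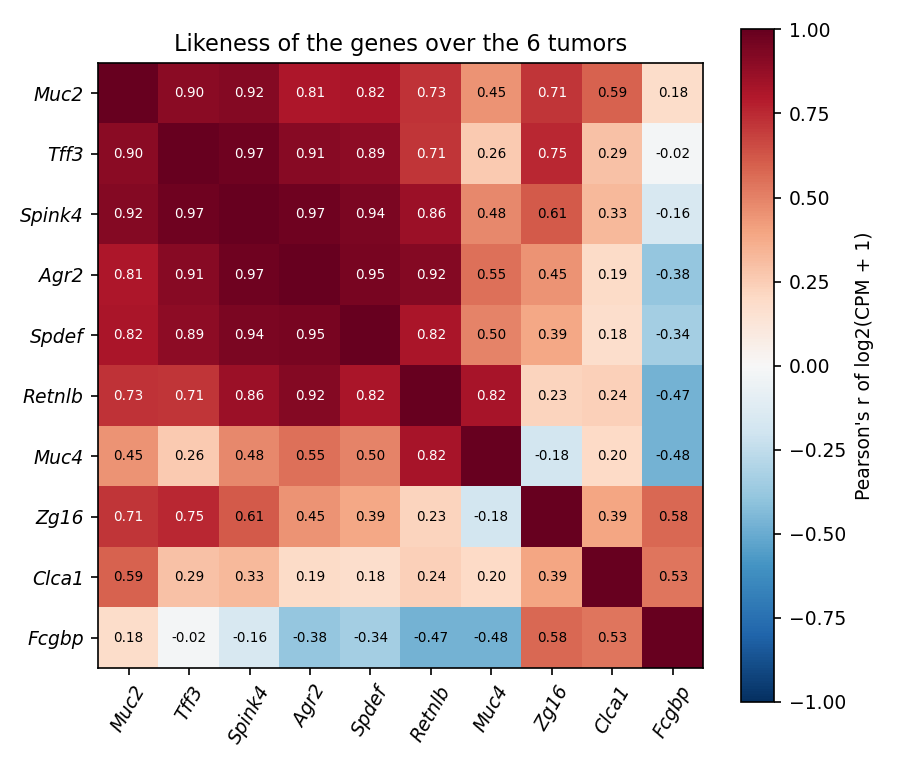
Pearson's r of log2(CPM + 1) over the 6 tumors for each of the 45 pairs of the 10 genes (red above 0, blue below). The block at the upper left holds the 8 pairs with r of at least 0.9, and Fcgbp, the last row, has an r below 0 with 6 genes.

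Genes outside the list were ranked by their r with the mean z-score of the 10. The closest were Cnksr1 (r = 0.99), Pycard (r = 0.99), Gm10131 (r = 0.99), Ighg1 (r = 0.99), Ugdh (r = 0.99), Hnrnpdl (r = 0.99), Mmadhc (r = 0.99), Srp9 (r = 0.99), Serpinb6a (r = 0.99) and Tmbim4 (r = 0.99). An r of at least 0.9 was found for 470 of 16426 genes, or 2.86%. Ugdh, the enzyme that makes UDP-glucuronic acid, had an FPKM of 14.95, 9.14 and 10.4 in the Tmem173fl/fl and 13.8, 11.3 and 10.6 in the Tmem173iΔmye tumors. Pycard, the inflammasome adaptor ASC, had 16.1, 7.30 and 9.17 against 15.9, 10.5 and 10.5. Ugdh followed the order of the tumors for Muc2, and so did Pycard apart from the near tie of Tmem173iΔmye replicates 2 and 3.

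Because the tumors could differ in epithelial content, each gene was also set against the geometric mean CPM of 10 epithelial markers. On the log2 scale, the difference between Tmem173iΔmye and Tmem173fl/fl tumors was above 0 for 5 genes and below 0 for 5, with a median of 0.086. It was -0.060 for Muc2, -0.046 for Tff3, -0.44 for Fcgbp and 1.91 for Retnlb. The smallest p of the 10 was 0.3 and the smallest adjusted p 1 (exact two-sided permutation tests, for which 0.1 is the smallest p at 3 tumors a group). Per epithelial marker, the 3 genes that lay highest in Tmem173iΔmye tumors were Retnlb, Muc4 at 0.53 and Agr2 at 0.37. All 10 epithelial markers themselves had a log2FC above 0, with a median of 0.096. Of these, Vil1, which encodes the microvillus protein villin, had a log2FC of 0.35 (SE 0.15, adjusted p = 0.742, edgeR), Epcam of 0.24 (SE 0.18) and Cldn7 of 0.25 (SE 0.20).

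The regulators of goblet cell fate were taken from a list of 10 genes, of which 10 were tested, 0 passed an adjusted p of 0.05 and 6 had a log2FC above 0, with a median of 0.090. Atoh1, the factor that commits cells to the secretory lineage, had an FPKM of 15.8, 4.03 and 10.2 in the Tmem173fl/fl and 9.47, 5.13 and 7.22 in the Tmem173iΔmye tumors. Atoh1 was thus lowest in Tmem173fl/fl replicate 2, as were Muc2 and Tff3, and it was named after its values were seen. That tumor was the lowest for 4 of the 10 regulators, and for 26.3% of all genes tested. Ern2, which encodes the stress sensor IRE1β of mucus-secreting cells, had 21.5, 18.8 and 18.7 against 16.3, 11.6 and 15.98 and did not overlap between the groups. Its log2FC was -0.43 (SE 0.17, adjusted p = 0.742, edgeR). Xbp1, the transcription factor activated by IRE1 proteins, had 70.1, 71.3 and 63.4 against 86.3, 79.7 and 85.2, again without overlap, and a log2FC of 0.29 (SE 0.12, adjusted p = 0.742, edgeR). Klf4, a factor of terminal goblet cell differentiation, had a log2FC of -0.45 (SE 0.26, adjusted p = 0.742, edgeR). Neither of the non-overlapping genes passed the adjusted test, and 12.5% of all genes had groups without overlap.

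In the Notch pathway, which restrains the secretory fate, 8 of 8 genes were tested, 0 passed an adjusted p of 0.05 and 1 had a log2FC above 0, with a median of -0.19. The receptors Notch1 and Notch2 had log2FC values of -0.35 (SE 0.17) and -0.50 (SE 0.24). Hey1, a target gene of the pathway that is also expressed in endothelium, was the gene above 0. Its FPKM was 1.49, 1.88 and 1.44 in the Tmem173fl/fl and 2.22, 2.89 and 3.20 in the Tmem173iΔmye tumors, which did not overlap, with a log2FC of 0.79 (SE 0.25, adjusted p = 0.742, edgeR). Hes1, the target best known for repressing Atoh1, had 45.3, 39.7 and 53.7 against 41.8, 40.9 and 45.7.

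Of 11 other mucins and trefoil factors, 6 passed the limit on low values, 0 of these passed an adjusted p of 0.05 and 4 had a log2FC above 0, with a median of 0.021. The gastric mucin Muc5ac was listed at 0 in all 6 tumors, and Muc5b, Tff1 and Tff2 had an FPKM of at most 0.0134, 0.624 and 0.408. Muc6, another gastric mucin, had an FPKM between 0.854 and 5.02. Among the transmembrane mucins, Muc13 had an FPKM of 697, 560 and 596 in the Tmem173fl/fl and 512, 598 and 503 in the Tmem173iΔmye tumors, and a log2FC of -0.20 (SE 0.17, adjusted p = 0.782, edgeR). Muc1 had 35.3, 25.6 and 11.0 against 14.3, 13.0 and 11.5, and a log2FC of -0.89 (SE 0.37, adjusted p = 0.742, edgeR). The Tmem173iΔmye tumors were close together for Muc1 and overlapped with Tmem173fl/fl replicate 3. Muc20, which overlaps Muc4, had a log2FC of 0.57 (SE 0.36, adjusted p = 0.752, edgeR), on the same side as Muc4.

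Mucins are decorated with O-linked glycans, and of 24 genes of this machinery 22 were tested, 0 passed an adjusted p of 0.05 and 9 had a log2FC above 0, with a median of -0.041. St6galnac1, the sialyltransferase of goblet cells, had an FPKM of 12.8, 1.56 and 5.93 in the Tmem173fl/fl and 13.0, 7.40 and 6.72 in the Tmem173iΔmye tumors. It was high in both replicates 1 and low in Tmem173fl/fl replicate 2, as Tff3 was, and it was named after its values were seen. The list as a whole did not share this, since Tmem173fl/fl replicate 2 was the lowest tumor for 4 of the 22, and for 26.3% of all genes tested. Galnt10, which starts O-glycans, had 10.9, 12.3 and 10.8 against 13.5, 13.2 and 13.2 without overlap, and a log2FC of 0.23 (SE 0.11, adjusted p = 0.742, edgeR). Gcnt1 and B4galnt3, which extend the glycans, had log2FC values of -0.58 (SE 0.29) and -0.53 (SE 0.27).

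Of 16 other goblet cell markers, 15 were tested, 0 passed an adjusted p of 0.05 and 6 had a log2FC above 0, with a median of -0.21, on the other side of 0 from the median of the 10 members. Tmem173fl/fl replicate 2 was the lowest tumor for 8 of the 15. Pdia5, a disulfide isomerase, had an FPKM of 10.4, 7.91 and 11.1 in the Tmem173fl/fl and 15.5, 11.9 and 12.1 in the Tmem173iΔmye tumors, without overlap, and a log2FC of 0.42 (SE 0.19, adjusted p = 0.742, edgeR). Capn8, a gut calpain, had a log2FC of -0.68 (SE 0.33) and Sytl2, a granule trafficking protein, of -0.33 (SE 0.17), each with an adjusted p of 0.742 from edgeR. Absorptive colonocyte markers ranged widely between tumors. Of 8 tested, 0 passed an adjusted p of 0.05, 3 had a log2FC above 0 and the median was -0.62. Tmem173fl/fl replicate 2 was the lowest tumor for 7 of the 8, with an FPKM of Aqp8, a water channel, of 1.40 against 62.5 and 37.7 in the other Tmem173fl/fl and 22.3, 11.7 and 10.9 in the Tmem173iΔmye tumors. Slc26a3, the chloride exchanger of surface cells, had 9.98, 0.420 and 18.7 against 3.30, 3.47 and 4.30. The cytochrome gene Cyp2c55 had a log2FC of -1.80 (SE 0.82, adjusted p = 0.742, edgeR), and Ceacam1, an adhesion molecule, of 0.23 (SE 0.15). The tumor with the lowest Muc2, Tff3 and Zg16 was therefore also the lowest for most colonocyte markers, while the 2 tumors that were high in Retnlb, Agr2 and Spink4 differed from each other in Aqp8 and Slc26a3.

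**Figure D5:**
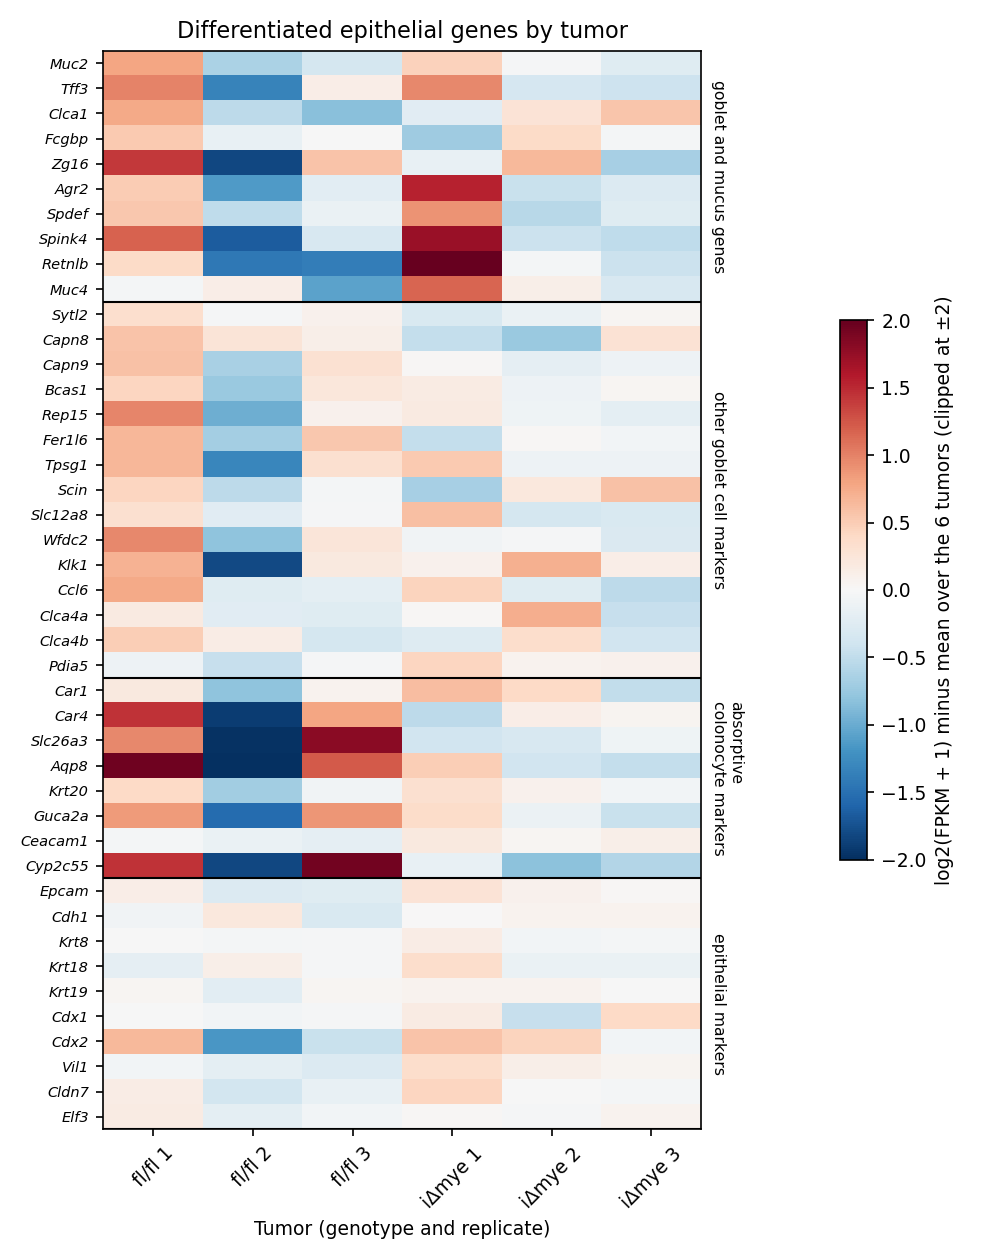
log2(FPKM + 1) minus its mean over the 6 tumors (color, clipped at ±2) for the 10 goblet cell and mucus genes, 15 other goblet cell markers, 8 absorptive colonocyte markers and 10 epithelial markers (rows) in each tumor (columns). Tmem173fl/fl replicate 2 is blue for most differentiated cell genes, while the epithelial markers at the bottom are near white apart from Cdx2.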

How the data were processed

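RNA-seq libraries of 6 tumors were prepared with a NEBNext Ultra kit. Per the submitters' processing notes, CASAVA 1.8, fastp, HISAT2 2.0.5, featureCounts 1.5.0-p3 and DESeq2 1.20.0 were used with GRCm38. The table deposited by the authors holds raw counts of reads on each gene, its length, and FPKM values that the authors made from the counts. Dividing the counts by length, median-of-ratios size factors and 1 common total returned the deposited FPKM to within a relative difference of 5e-07. The authors' group means, fold changes and p-values in the same table were not used.

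The quasi-likelihood F-test of edgeR 4.0.16 was run on the counts under R 4.3.3, with TMM scaling and genotype as the single term. P-values were adjusted by Benjamini-Hochberg over the 16426 genes whose mean FPKM reached 0.5. Totals ranged from 15329810 to 16533732 counts per tumor. Alternatives were DESeq2 1.42.0, limma 3.58.1 on log2(FPKM + 1), log2(FPKM + 0.1) or voom values, other scalings and filters, the replicate number as a block, the presence of Y-linked reads (4 genes, at least 100 counts) as a covariate and leaving out each tumor. SE is that of the log2 fold change. Pairs of genes and levels relative to epithelial markers were tested by exact two-sided permutation with Python 3.11.15 and scipy 1.17.1. The scripts were tested on simulated counts.

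The 10 genes and the 13 lists of 134 other genes were chosen with earlier results of these data known. From each list, the genes past both limits of the study's threshold and up to 3 genes with the lowest p-values were named, together with the 10 genes most like the members. One gene named by this rule is not reported here. Other list genes (Atoh1, Hes1, St6galnac1, Aqp8, Il4, Il5, Il13, Il22, Il25 and the mucins and trefoil factors of low level) were named after their values were seen. The samples have separate titles, and p-values measure the spread between samples. The labels do not say how many tumors of a mouse went into each.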

Additional observations from a re-analysis of the deposited data

How the results depend on the processing

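The call of no gene past both limits changed in 7 of 18 alternative settings, for Retnlb in 6, for Zg16 in 1 (-1.02 without Tmem173fl/fl replicate 2) and for Clca1 in 1 (1.11 with both replicates 1 left out, where Retnlb had 1.81). None of the 18 gave one of the 10 genes an adjusted p under 0.05, and the median log2 fold change stayed within the spread between tumors, from -0.22 to 0.77 with each tumor left out. The number below 0, 2 as reported, was 4 with library totals, 4 with library sizes without the 20 highest genes, 5 with sex as a covariate and 1 with both replicates 1 left out (chosen after seeing the data), and 0 to 6 with each tumor left out. Over all genes, an adjusted p under 0.05 was reached by 6 genes with no filter, 28 in DESeq2, 1 with both replicates 1 left out and 0 to 1 with each tumor left out, where the 1 came without Tmem173iΔmye replicate 1. Both limits were passed by 349 genes as reported, 872 with no filter, 131 in limma on log2(FPKM + 1), 211 with sex and 218 to 636 with each tumor left out. Signs turned for Muc2 (-0.012 with totals, -0.020 without the 20 highest genes, -0.16 with sex), Tff3 (-0.044, -0.053 and -0.27, and -0.0019 at a mean FPKM of at least 1), Spdef (-0.078 with sex, -0.093 with both replicates 1 left out), and, with both replicates 1 left out, Fcgbp (0.27) and Zg16 (0.31). With each tumor left out, the log2 fold change ran from -0.24 to 0.59 for Muc2, -0.60 to 0.65 for Tff3, -0.020 to 0.93 for Clca1, -0.50 to 0.031 for Fcgbp, -1.02 to 0.22 for Zg16, -0.23 to 1.18 for Agr2, -0.47 to 0.52 for Spdef, -0.66 to 1.501 for Spink4, 0.42 to 3.90 for Retnlb and 0.17 to 1.06 for Muc4. The cause was not tested. For Retnlb, counts of 10 to 64 in the Tmem173fl/fl tumors limit the precision, and 3 tumors per group limit all of the genes.

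The labels do not say whether the replicate numbers pair the tumors, and the correlations did not settle it. Across genes, tumors of the same number correlated, after subtraction of the group mean, at 0.31, 0.0085 and 0.15. Tmem173fl/fl replicates 1 and 3 correlated best with the Tmem173iΔmye tumor of their own number. Tmem173fl/fl replicate 2 correlated best with Tmem173iΔmye replicate 3, at 0.22. Each of these best matches joined tumors alike in the presence or absence of Y-linked reads, and the part of sex in them was not tested. With the replicate block, 0 genes had an adjusted p under 0.05, 377 passed both limits, 2 of the 10 genes were below 0 with a median of 0.28, and the smallest adjusted p of the 10 was 0.240, for Retnlb with a log2 fold change of 2.16 (edgeR). In edgeR, the unadjusted p of Retnlb was 0.000542 with the block, past both limits, against 0.058 without it. Those of Agr2 and Muc4 were 0.0387 and 0.0212, short of the limit on the fold change. Low p-values were more frequent over all genes too. Of 16426 genes, 1504 had an unadjusted p under 0.05 with the block and 1008 without it (edgeR).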

Other observations

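Secretory cells other than goblet cells and the supporting tissue were also measured in these tumors. Of 8 deep crypt secretory and Paneth cell genes, 0 passed an adjusted p of 0.05 in edgeR and 4 had a log2 fold change of Tmem173iΔmye relative to Tmem173fl/fl tumors (log2FC) above 0, with a median of 0.027. Their summed FPKM was 3098, 1091 and 2499 in the Tmem173fl/fl and 2990, 1286 and 1214 in the Tmem173iΔmye tumors. Lyz1, the Paneth cell lysozyme, had 1643, 431 and 1414 against 1159, 316 and 461 FPKM, and a log2FC of -0.86 (SE 0.59, adjusted p = 0.757, edgeR). Pla2g2a, an antibacterial phospholipase, had a log2FC of 0.58 (SE 0.31) and Mptx1, a mucosal pentraxin, of 1.01 (SE 0.85). Of 8 Wnt and crypt base markers, 4 were above 0, with a median of 0.0080, and the stem cell marker Lgr5 had a log2FC of -0.43 (SE 0.19, adjusted p = 0.742, edgeR), Rnf43 of -0.34 (SE 0.18) and Notum of 0.24 (SE 0.17).

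Several cytokines that act on goblet cells were at or near the limit of detection, while Il4 (FPKM 0.560 to 1.36) and Il33 (5.74 to 25.8) were tested. Of 11 cytokines, receptors and signal genes, 6 were tested and 2 were above 0, with a median of -0.090. Il13 had an FPKM of at most 0.105, Il25 of at most 0.119 and Il22 of at most 0.282, and Il5 was listed at 0 in all 6 tumors. Il4ra had a log2FC of 0.36 (SE 0.20, adjusted p = 0.742, edgeR), Il33 of 0.53 (SE 0.46) and Il22ra1 of -0.15 (SE 0.16). Among 6 fibroblast markers 5 were above 0 (median 0.26), with Dcn at 0.32 (SE 0.18), Col3a1 at 0.30 (SE 0.20) and Col1a2 at 0.23 (SE 0.19). Among 6 smooth muscle markers 1 was above 0 (median -0.51), with Des at -1.01 (SE 0.39, adjusted p = 0.742, edgeR), Cnn1 at -0.68 (SE 0.36) and Myh11 at -0.48 (SE 0.29). Among 8 immune cell markers 5 were above 0 (median 0.14), and Jchain, the joining chain of secreted antibody, had 73.6, 27.8 and 34.9 against 150, 53.5 and 90.1 FPKM and a log2FC of 1.10 (SE 0.46, adjusted p = 0.742, edgeR), with Cd3e at 0.51 (SE 0.49). Des and Jchain passed both limits of the study's threshold, as did 2.12% of all genes tested. None of these lists held a gene with an adjusted p under 0.05.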
